A study of Mus musculus with 23 samples.

Results

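The genes described here are the clustered protocadherins of the mouse, adhesion receptors encoded in 3 tandem gene clusters on chromosome 18. Members were all rows of the deposited expression table whose gene symbol belongs to the Pcdha, Pcdhb or Pcdhg series and whose mean was at least 10 normalized counts over the 23 libraries used. This gave 57 members among 17118 genes tested and 18578 genes in the table: 14 of the alpha cluster, 21 of the beta cluster and 22 of the gamma cluster. All 57 members in the table passed the minimum mean, and Pcdhb1, the remaining gene of the 58 annotated, was not analysed here.

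Clustered protocadherins are cadherin-superfamily proteins of the neuronal surface. Each alpha and gamma gene has a variable first exon with its own promoter, which encodes the extracellular, transmembrane and first cytoplasmic parts and is spliced to constant exons shared by the whole cluster, whereas beta genes are single-exon genes without a constant region. Single neurons choose a small set of variable exons, through CTCF, cohesin and distant enhancers, and the resulting proteins bind homophilically, which lets a neuron tell its own branches from those of other cells. The C-type members at the ends of the alpha and gamma clusters are regulated differently from the alternate members and are expressed more broadly.

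The study profiled poly(A) RNA of tissue labelled "Brain", with no region named, from male C57BL/6J mice that were wild-type (WT) or carried the Grin2b mutation C456Y named in the series title, in a gene for an NMDA receptor subunit. The mutant genotype is called heterotype in the sample labels and heterozygous in the series text, and is written HT here. Mice of each genotype were either controls or received foot-shock, an aversive stimulus, which gave 4 groups: WT control (6 libraries), HT control (6), HT shock (6) and WT shock (5). The labels give the age as postnatal day 17 while the series text speaks of adult ages, and the sources used here do not give the time between shock and tissue collection. The labels do not say whether libraries of a group came from separate animals, so each p-value reflects variation among the deposited libraries, part of which may be technical.

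Library totals ranged from 30980153 to 32569746 normalized counts, and the sequencing depth behind them is unknown. Neuronal markers were abundant in every library, with the least abundant of 8 pan-neuronal genes at a mean of 9824. Grin2b itself ranged over 12521-15225 in WT control, 10734-14218 in WT shock, 9556-14275 in HT control and 9874-11518 in HT shock, which does not check the genotype because the mutation alters the coding sequence. HT control replicate 6 stood apart from its group: on the first principal component of all genes (12.9% of the variance) it lay at 31.3, against -12.7 to 5.17 for the other HT control libraries and 11.4 to 26.0 for HT shock. The main member values and counts of calls that rest on HT control are therefore also given without that library. The ranges of marker genes and the calls in other gene lists include it.

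The structure of the clusters bears on what a value means. On GRCm38 the alpha genes span chr18:36930184-37187661, the beta genes chr18:37294812-37524479 and the gamma genes chr18:37661793-37841873, all on the + strand. All 14 alpha members share constant exons of 59, 89 and 2712 bases in the annotation, and their own first exons measure between 2346 and 3028 bases. All 22 gamma members share constant exons of 59 and 89 bases, and 17 of them also share a last exon that ends at 37841873, while that of the other 5 ends at 37841870. Reads within constant exons cannot be assigned to a single member, so the alpha and gamma values depend on how they were split and are uncertain to that extent. The 21 beta members have 1 exon each, of 2801 to 8695 bases, and share no exon, although Pcdhb21 and Pcdhb22 overlap on the same strand at chr18:37517871-37518325. Pcdha11 is the symbol of 2 gene identifiers, ENSMUSG00000007440 and ENSMUSG00000102206, which were kept apart.

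Levels were compared between members only after division by transcript length. On this scale, normalized counts per kilobase averaged over all libraries, 4 of the 5 C-type members led: Pcdhgc4 at 1141, Pcdhgc5 at 876, Pcdhgc3 at 720 and Pcdhac2 at 394. Pcdhgc4 is required for the survival of many neurons, Pcdhgc5 interacts with GABA-A receptors, Pcdhgc3 acts in dendrite growth, and Pcdhac2 is the member through which serotonergic axons tile. The remaining C-type member, Pcdhac1, stood at 47.3 per kilobase, near the median of the 12 alternate alpha members, 43.2. The beta members had a median of 41.6 per kilobase, with Pcdhb17 the highest at 110. The gamma A members had a median of 116 and the gamma B members 80.5, led by Pcdhga11 at 221 and Pcdhgb6 at 184. At the low end lay Pcdha8 with 5.43, Pcdha1 with 16.6 and Pcdhb2 and Pcdhb4, both with 18.9 per kilobase. Each of the 6 highest members differed from the next in order by more than the larger of their SDs in WT control, whereas 40 of all 56 neighbouring pairs did not.

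**Figure D1:**
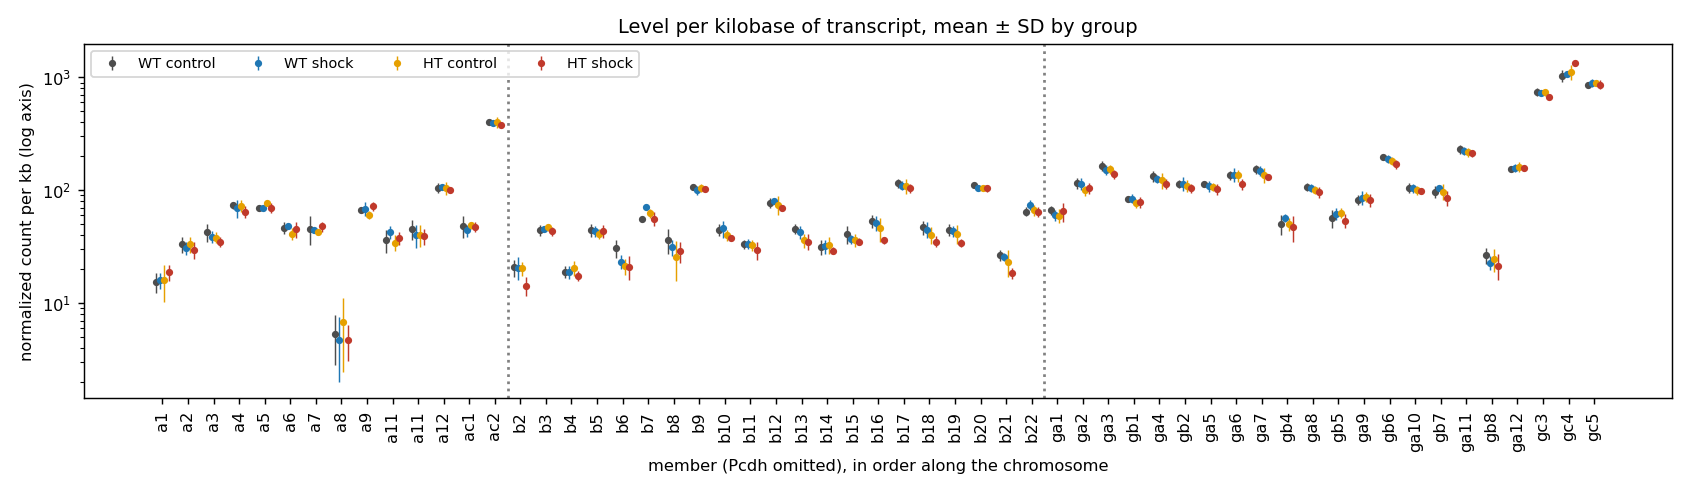
Normalized counts per kilobase of transcript (log axis) for the 57 members in order along the chromosome, as mean ± SD in each of the 4 groups. Pcdhgc4, Pcdhgc5, Pcdhgc3 and Pcdhac2 stand above all alternate members in every group, and Pcdha8 is the lowest.

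Spread between libraries of one group also differed among members. The within-group SD of log2 values had a median of 0.177 over the 57 members and ran from 0.0875 for Pcdhb20 to 0.736 for Pcdha8, the member with the lowest level. For members as variable as Pcdha8, differences of the size seen elsewhere in the clusters were not detectable in these groups.

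The comparison of HT shock with WT shock asked how the genotypes differ after foot-shock. Pcdhgc4 was higher in HT shock, and Pcdhb7 and Pcdhb16 were lower. These 3 of 57 members passed adjusted p below 0.05 in limma, fitted across all genes with all 4 groups and Benjamini-Hochberg adjustment, which is 5.26% of members against a background of 9.28% of all genes tested (3.95% called higher and 5.33% called lower). The share of members called was thus not above that of genes in general. The direction of the estimates was less even than among all genes: 47 of 57 members had a log2 difference below 0, or 82.5%, against a background of 49.2% of genes, and the median difference was -0.12 over the members and 0.0037 over all genes.

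Pcdhgc4 (ENSMUSG00000023036), the member with the highest level per kilobase, was the only one called higher in HT shock than in WT shock. The WT shock libraries held 5078, 5229, 5404, 5565 and 5578 normalized counts, and the 6 HT shock libraries ranged from 6036 to 7130 with a median of 6841. Every HT shock library lay above every WT shock library. The group means were 6729 ± 412 (SD, n = 6) and 5371 ± 217 (SD, n = 5), and the log2 difference was 0.32 ± 0.079 (SE, adjusted p = 0.0187 in limma). The control groups spread wider, with WT control from 4581 to 6274 (median 5022) and HT control from 4929 to 7114 (median 5304), so that each held at least 1 library above all WT shock libraries. The highest HT control value belonged to replicate 6, and the other 5 ranged from 4929 to 5874. The call held when any 1 of the 23 libraries was left out. It was lost when the replicate number of the title entered the model as a block, a pairing that the labels do not support.

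Pcdhgc4 accordingly took a larger share of the gamma cluster. The gamma sums of the shocked groups differed by only 0.43%, so the share restates the difference above and is not a second result. Pcdhgc4 made up 28.9% of the summed gamma values in HT shock (SD 1.48, n = 6) but 23.2% in WT shock (SD 0.765, n = 5). The ranges, 26.3% to 30.5% and 21.9% to 23.7%, did not overlap. The shares were 22.4% ± 2.70 (SD, n = 6) in WT control and 24.3% ± 4.01 (SD, n = 6) in HT control, with single libraries at 27.4% (WT control replicate 3) and 31.8% (HT control replicate 6). Without that library the HT control share was 22.8% (SD 1.78, n = 5). The other gamma C-type members had lower means in HT shock and were not called. Pcdhgc3 averaged 3144 ± 140 in HT shock and 3412 ± 151 in WT shock, a log2 difference of -0.12 ± 0.054 (SE, adjusted p = 0.151 in limma). Pcdhgc5 averaged 4093 ± 359 and 4236 ± 351, a log2 difference of -0.050 ± 0.064 (SE, adjusted p = 0.651 in limma).

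**Figure D2:**
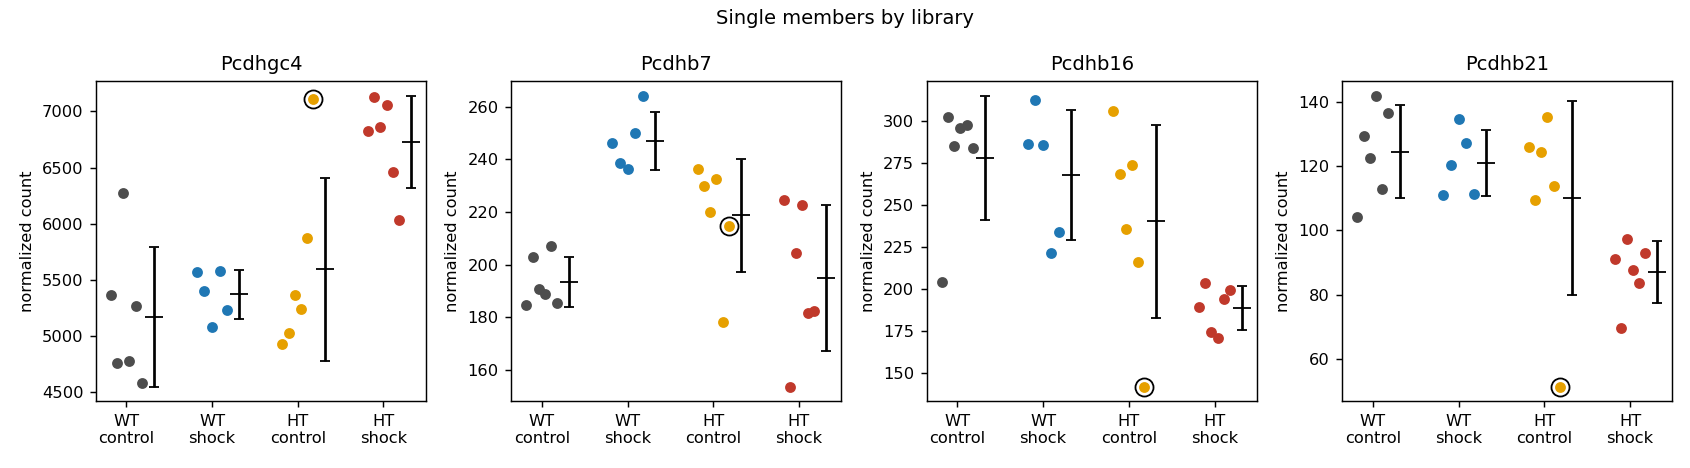
Normalized counts of Pcdhgc4, Pcdhb7, Pcdhb16 and Pcdhb21 in each library by group (points), with the group mean ± SD (black) and HT control replicate 6 ringed. HT shock lies entirely above WT shock for Pcdhgc4 and entirely below it for the 3 beta members.

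Among the beta members, Pcdhb7 (ENSMUSG00000045062) was highest in WT shock. Its 5 WT shock libraries held 236, 239, 246, 250 and 264 normalized counts, while the HT shock libraries ranged from 154 to 225 with a median of 193. WT control ranged from 185 to 207 (median 190) and HT control from 178 to 236 (median 225). WT shock thus lay above both WT control and HT shock without overlap. The log2 difference between HT shock and WT shock was -0.35 ± 0.090 (SE, adjusted p = 0.0221 in limma), and the call was lost when HT shock replicate 2 was left out (adjusted p = 0.0572).

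Pcdhb16 (ENSMUSG00000047910) had the largest difference of the called members. WT shock libraries held 222, 234, 285, 286 and 312 normalized counts, and HT shock libraries ranged from 171 to 204 with a median of 192. The 2 shocked groups did not overlap, and the log2 difference was -0.49 ± 0.14 (SE, adjusted p = 0.0321 in limma). In WT control the values ran from 204 to 302 (median 290) and in HT control from 142 to 306 (median 252), so the HT control libraries covered nearly the whole range of the other groups. Without replicate 6, HT control ran from 216 to 306. The call rested on several libraries: it was lost on leaving out HT shock replicate 1, 2, 3 or 4 or WT shock replicate 1, 2 or 3, with adjusted p between 0.0557 and 0.0842.

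Pcdhb21 showed the same separation without passing the test. Its WT shock values were 111, 111, 120, 127 and 135, and its HT shock values ranged from 69.7 to 97.3 with a median of 89.3, a log2 difference of -0.47 ± 0.17 (SE, adjusted p = 0.0694 in limma). Together, 4 of 57 members had groups that did not overlap, Pcdhgc4 above and Pcdhb7, Pcdhb16 and Pcdhb21 below, against a background of 8.57% of all genes. Over the whole beta cluster, 19 of 21 members had negative differences, with a median of -0.18. After correction for gene length and GC content, 16 of 21 were negative and the median was -0.12. Estimates near 0 were seen for Pcdhb5 (0.0069 ± 0.11 SE), Pcdhb20 (-0.0067 ± 0.062 SE) and Pcdhb9 (0.049 ± 0.066 SE).

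Summed over the cluster, the beta genes held 4022 ± 125 normalized counts in the HT shock libraries (SD, n = 6) against 4556 ± 212 in those of WT shock (SD, n = 5), a change of -11.7%. The WT shock libraries held 4203, 4547, 4594, 4700 and 4738, and the HT shock libraries ranged from 3835 to 4214, so that only WT shock replicate 5 lay within the HT shock range. In the control groups the sums were 4589 ± 257 in WT and 4337 ± 478 in HT (SD, n = 6 each), the latter being 4501 ± 289 without replicate 6 (SD, n = 5). No test was made on cluster sums, because the members were chosen with earlier results known.

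The alternate gamma members, gamma A and gamma B, had negative differences in 18 of 19 cases, with a median of -0.13, and none was called. The smallest adjusted p among them was that of Pcdhgb7, at -0.31 ± 0.11 (SE, adjusted p = 0.0598 in limma). Their summed values were 9764, 9843, 10258, 10458 and 10550 in WT shock and ranged from 9015 to 9671 in HT shock (median 9302), a change of -8.29% and without overlap. The whole gamma cluster did not show this difference. With the 3 C-type members included, the sums were 23296 ± 746 (SD, n = 6) after shock in HT mice against 23193 ± 629 (SD, n = 5) in WT mice, a change of 0.43%. The gamma C-type members made up 59.9% ± 0.870 of the sum in HT shock and 56.1% ± 1.18 in WT shock.

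The alpha cluster differed least in direction. Of its 14 members, 8 had negative differences between HT shock and WT shock and none was called, the smallest adjusted p being 0.396 in limma, for Pcdha12 at -0.10 ± 0.078 (SE). The median was -0.034, which turned to 0.054 when gene length and GC content were corrected for. Summed alpha values after shock were 5485 ± 106 in HT (SD, n = 6) against 5656 ± 260 in WT (SD, n = 5), within the spread of the libraries. Of the alpha C-type members, Pcdhac2 averaged 2222 ± 90.8 and 2325 ± 159, a log2 difference of -0.064 ± 0.062 (SE, adjusted p = 0.536 in limma). Pcdhac1 averaged 257 ± 24.3 and 239 ± 29.2, a log2 difference of 0.11 ± 0.12 (SE, adjusted p = 0.594 in limma).

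**Figure D3:**
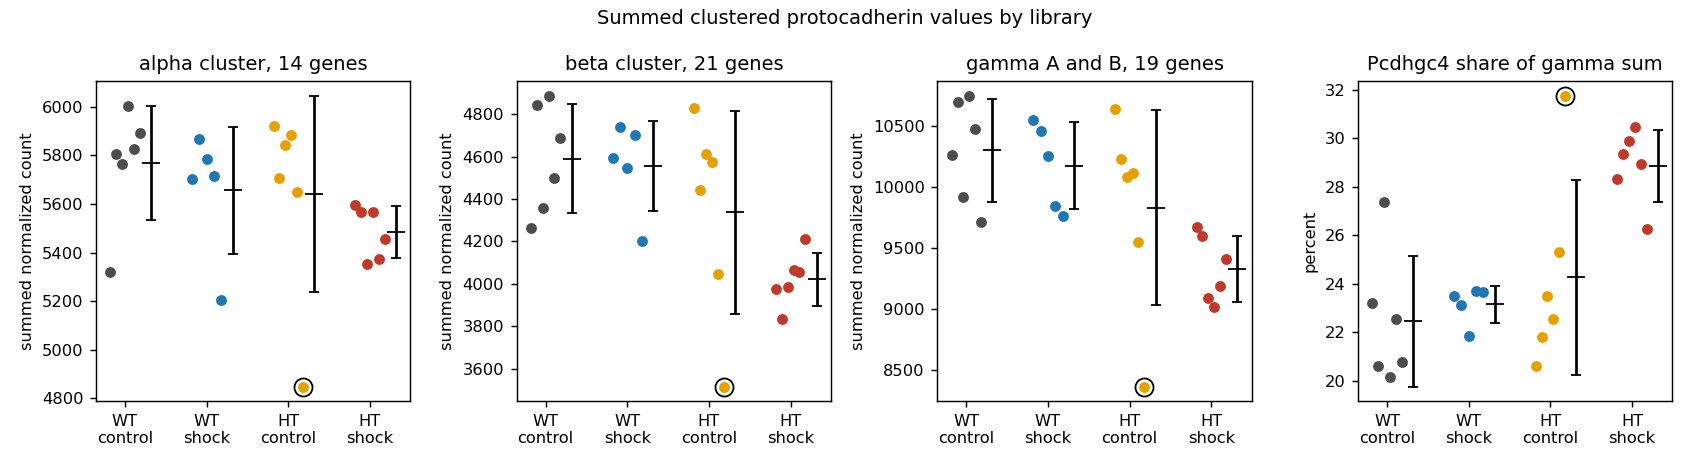
Summed normalized counts of the alpha cluster, the beta cluster and the gamma A and gamma B members, and the percent share of Pcdhgc4 in the gamma sum. Points are libraries by group, with mean ± SD (black) and HT control replicate 6 ringed. The gamma A and gamma B sums of HT shock lie below those of WT shock, while the Pcdhgc4 shares lie above.

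Markers of some cell types also differed between the shocked groups. In HT shock against WT shock, 9 of 10 striatal neuron markers were lower, with summed levels of 25626-37578 against 42358-43397 and, in the controls, 33029-42611 in HT and 42896-47904 in WT. Of 8 oligodendrocyte markers 5 were lower, with sums of 185493-232014 in HT shock, 223870-281841 in WT shock, 211363-238507 in HT control and 205930-256096 in WT control. Of 6 cortical excitatory markers 3 were higher, with sums of 69196-82632 in HT shock, 58056-64369 in WT shock, 63385-76626 in HT control and 60007-64689 in WT control. Of the other lists, calls higher and lower numbered 1 and 1 of 8 for pan-neuronal genes, 1 and 0 of 6 for immature neurons, 1 and 1 of 7 for interneurons, 0 and 3 of 5 for thalamic neurons, 0 and 1 of 4 for serotonergic neurons and 0 and 1 of 8 for astrocytes. No call was made among 5 cerebellar, 4 oligodendrocyte precursor, 6 microglial, 5 endothelial and 5 choroid plexus and ependymal genes. The background in this comparison was 3.95% of all genes called higher and 5.33% called lower. None of the markers was at 0 in any library. Their part in the protocadherin differences was not tested, and in bulk tissue fewer cells of a type and less RNA per cell cannot be told apart.

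The remaining comparisons were the effect of foot-shock in each genotype, the genotypes without shock, and whether the shock effect differed between genotypes. In all 4, no member was called, and neither was any other gene, a background of 0%. Unadjusted p below 0.05 was reached by 3 members in WT shock against WT control (background 3.72% of genes), 8 in HT shock against HT control (background 13.7%), 6 in HT control against WT control (background 11.1%) and 4 in the interaction (background 6.43%). The share of members was 61.4% below 0 for shock in WT mice, 80.7% for shock in HT mice and 73.7% for genotype without shock, against backgrounds of 50.2%, 49% and 50.2% of genes, with medians of -0.021, -0.060 and -0.067. Without HT control replicate 6, the share below 0 for genotype without shock was 61.4% and its median -0.023, and for shock in HT mice they were 84.2% and -0.11. No member was then called for genotype without shock or for the interaction. These comparisons share groups with one another and with HT shock against WT shock, so their estimates are not independent.

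The smallest p among the members was that of Pcdhb7 for shock in WT mice and for the interaction, that of Pcdhgc4 for shock in HT mice, and that of Pcdhb6 for genotype without shock. Pcdhb7 averaged 193 ± 9.40 (SD, n = 6) in unshocked WT mice and 247 ± 11.02 (SD, n = 5) in shocked ones, a log2 difference of 0.35 ± 0.090 (SE, adjusted p = 0.998 in limma), and it was the only member whose WT groups did not overlap (background 0.374% of genes). In HT mice it averaged 219 ± 21.5 without and 195 ± 27.6 with shock (SD, n = 6 each), which gave an interaction of -0.52 ± 0.12 (SE, adjusted p = 0.552 in limma). The difference of shock effects for Pcdhb7 therefore did not pass over all genes, nor did it without HT control replicate 6 (-0.53 ± 0.13, adjusted p = 0.129 in limma). Pcdhgc4 averaged 5592 ± 816 in HT control (SD, n = 6) and had a log2 difference of 0.28 ± 0.075 between HT shock and HT control (SE, adjusted p = 0.230 in limma). Its interaction was 0.21 ± 0.11 (SE, adjusted p = 0.773 in limma) and, without HT control replicate 6, 0.29 ± 0.089 (SE, adjusted p = 0.175 in limma).

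Leaving out HT control replicate 6 changed the comparison of shock in HT mice. HT control replicate 6 was singled out from these same data and lay towards HT shock, so leaving it out favours calls here. Without it 7 of 57 members were called, 12.3% against a background of 12.1% of genes under the same setting. Pcdhgc4 was then higher after shock, by 0.35 ± 0.063 (SE, adjusted p = 0.00266 in limma). Lower after shock were Pcdhb21 at -0.48 ± 0.10, Pcdhb19 at -0.38 ± 0.087, Pcdhb16 at -0.45 ± 0.11, Pcdhga6 at -0.32 ± 0.085, Pcdhb2 at -0.58 ± 0.17 and Pcdhac2 at -0.14 ± 0.044 (log2 ± SE), with adjusted p between 0.00562 and 0.0388 in limma. HT control replicate 6 itself lay on the HT shock side for several of these: it held 51.3 normalized counts of Pcdhb21, where the other HT control libraries held 109 or more, and 1854 of Pcdhac2, where they held 2343 or more. Without this library the comparison of HT shock with WT shock called 9 members, 15.8% against a background of 17.1%. That library takes no part in the means of this comparison and enters through the shared estimate of spread.

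**Figure D4:**
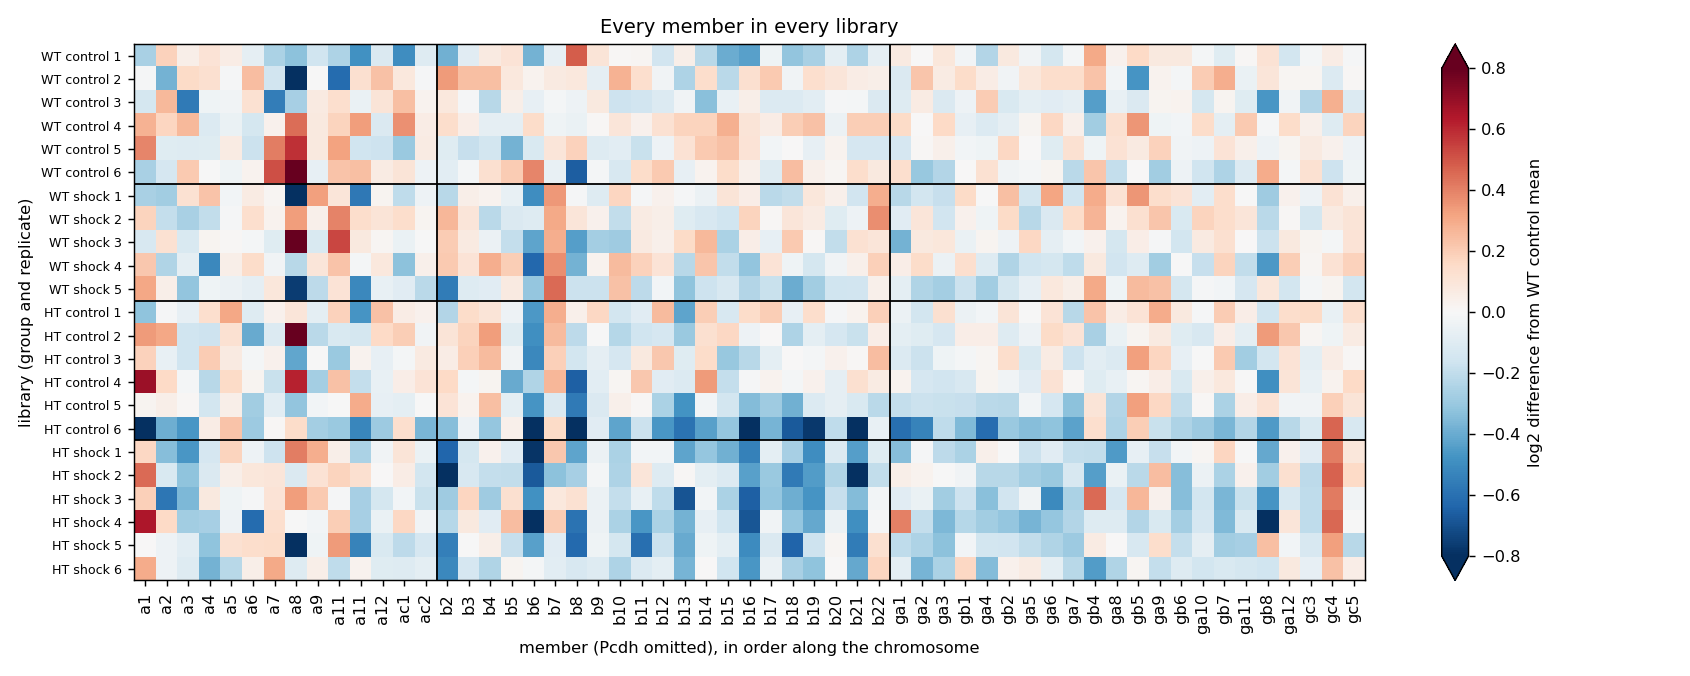
Log2 difference of every member from its WT control mean in all 23 libraries (rows, by group and replicate), with members in order along the chromosome. HT shock libraries and HT control replicate 6 show mostly lower values across the beta and alternate gamma members and higher values at Pcdhgc4. The alpha members show no common direction in the HT shock libraries, whereas most of them are lower in HT control replicate 6.

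Averaged over both treatments, the genotypes differed for 8 of 57 members, or 14%, equal to the background of 14% of all genes tested. Only Pcdhgc4 was higher in HT (background 5.42% of genes called higher), at 0.22 ± 0.055 (log2 ± SE, adjusted p = 0.0139 in limma). Lower in HT were 5 beta members, 23.8% of that cluster against a background of 8.62% of genes called lower: Pcdhb16 at -0.37 ± 0.098, Pcdhb21 at -0.35 ± 0.12, Pcdhb6 at -0.34 ± 0.11, Pcdhb13 at -0.30 ± 0.081 and Pcdhb18 at -0.29 ± 0.087 (log2 ± SE), with adjusted p between 0.0169 and 0.0426 in limma. Of the gamma cluster, Pcdhga7 at -0.18 ± 0.057 and Pcdhgb6 at -0.13 ± 0.044 were lower (log2 ± SE, adjusted p = 0.0389 and 0.0473 in limma). No alpha member was called. Differences were below 0 for 46 of 57 members, 80.7% against a background of 48.6% of genes, with medians of -0.041 for alpha, -0.12 for beta and -0.10 for gamma, and 0.0040 over all genes. Without HT control replicate 6 they were below 0 for 42 of 57 members, or 73.7%, with a median of -0.067 over the members. The genotype average uses the same shocked libraries as the previous comparisons and is not independent of them.

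The called beta members differed in which group stood out. Pcdhb6 was highest in WT control, at 115 ± 20.99 (SD, n = 6), against 86.7 ± 12.3 after shock in WT mice (SD, n = 5), and in HT mice it held 79.0 ± 12.9 without and 78.6 ± 18.6 with shock (SD, n = 6 each). Its log2 difference between the unshocked genotypes was -0.53 ± 0.15 (SE, adjusted p = 0.297 in limma), and -0.44 ± 0.14 (SE, adjusted p = 0.672 in limma) without HT control replicate 6. Pcdhb13 was lower in both HT groups, at 134 ± 18.8 and 130 ± 21.2 against 168 ± 17.1 and 157 ± 20.4 in WT (controls first). Pcdhb18 stepped down from 236 ± 33.3 in WT control and 226 ± 36.8 in WT shock to 202 ± 34.6 in HT control and 177 ± 19.5 in HT shock. Without HT control replicate 6, the HT control means were 138 ± 16.9 for Pcdhb13 and 213 ± 23.9 for Pcdhb18 (SD, n = 5). For all 3, single libraries of the genotypes overlapped.

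How firmly these genotype calls stand varied. Pcdhgc4, Pcdhb13 and Pcdhb16 kept theirs when any 1 of the 23 libraries was left out. Pcdhb18 kept its call in 17 of 23 cases, Pcdhb6 in 15, Pcdhga7 in 11, Pcdhb21 in 10 and Pcdhgb6 in 5. The count of members called fell to 3 when replicate 4 of WT control or replicate 2 of WT shock was left out, to 4 when replicate 5 of HT control or replicate 2 or 4 of HT shock was, and to 5 when replicate 6 of HT control, replicate 1 of HT shock or replicate 2 or 6 of WT control was. The share of all genes called fell in each of these cases too, from 14% to between 9.84% and 11.9%. Without HT control replicate 6 the background was 11.3%, and Pcdhgc4, Pcdhb13, Pcdhb16, Pcdhb18 and Pcdhb21 were called, at 0.18, -0.28, -0.29, -0.24 and -0.25 on the log2 scale. With gene length and GC content corrected for, 3 members were called, Pcdhgc4, Pcdhb13 and Pcdhb16, 5.26% against a background of 6.52% of genes.

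**Figure D5:**
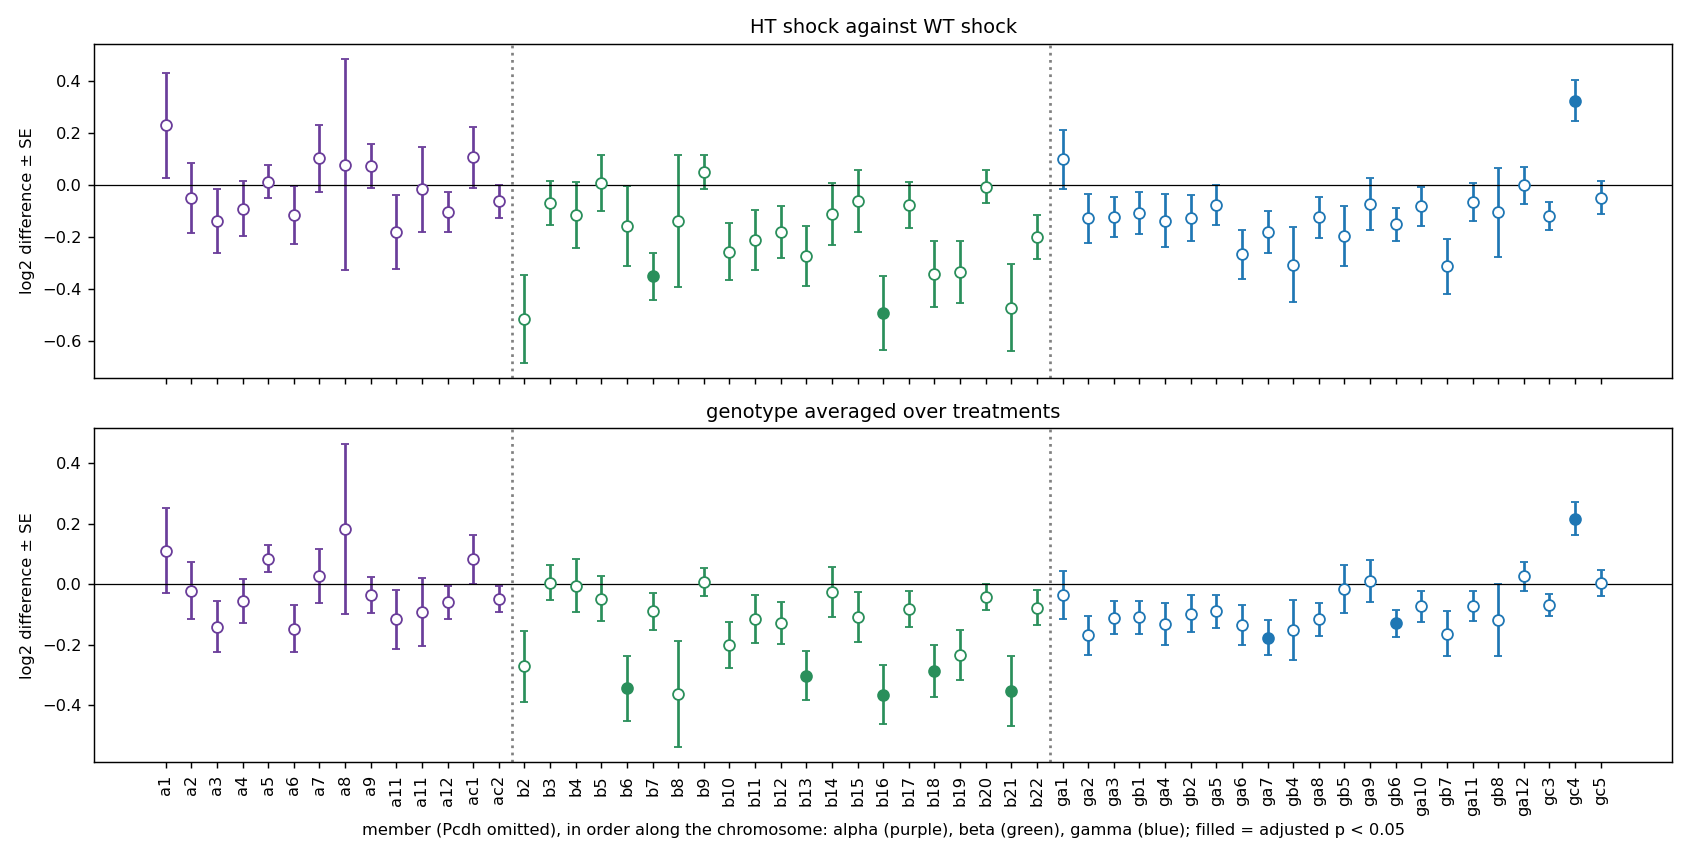
Log2 difference ± SE of each of the 57 members, in order along the chromosome, in the comparison of HT shock with WT shock and in the genotype difference averaged over treatments. Beta and alternate gamma members lie mostly below 0, alpha members on both sides, and Pcdhgc4 stands above 0 at 0.32 and 0.22.

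Shock averaged over genotypes gave no called member and no called gene (background 0%), and 6 members reached unadjusted p below 0.05, against a background of 9.08% of genes. Pcdhgc4 had the smallest p, at 0.17 ± 0.055 (log2 ± SE, adjusted p = 0.541 in limma). Without HT control replicate 6, Pcdhgc4 at 0.21 ± 0.044, Pcdhb21 at -0.26 ± 0.073 and Pcdhb19 at -0.22 ± 0.061 (log2 ± SE) were called, with adjusted p between 0.0217 and 0.0467 in limma and a background of 4.01% of genes. Leaving out this library, chosen after its values were seen, favours calls here too.

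Correlations between members within groups were weak and rested in part on HT control replicate 6. Over the 23 libraries, after subtraction of group means from log2 values, the median Pearson correlation was 0.248 over the 210 pairs of beta members, 0.202 over the 171 pairs of gamma A and gamma B members and 0.055 over the 66 pairs of alternate alpha members. Pcdhgc4 ran the other way, with a median of -0.433 against the 21 beta members and -0.389 against the 19 alternate gamma members. Pcdhac2 correlated positively with the beta members, with a median of 0.481. These are descriptions: the points share the library and its normalization, and alpha and gamma members share constant exons. Over the 22 libraries without HT control replicate 6, the medians were 0.125 for beta pairs, 0.089 for alternate gamma pairs and -0.034 for alternate alpha pairs. Those of Pcdhgc4 were then -0.211 against beta and -0.136 against alternate gamma members, and that of Pcdhac2 against beta members was 0.268.

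Of 20 genes that act at protocadherin promoters, among them CTCF, cohesin and chromatin regulators, 1 was called in HT shock against WT shock, where the background was 9.28% of genes. Pds5b, a cohesin regulator, was lower at -0.13 ± 0.041 (log2 ± SE, adjusted p = 0.0413 in limma). Averaged over treatments, Pds5b, Rad21 and Stag1, all of the cohesin complex or bound to it, were lower in HT and none of the 20 was higher, against a background of 14% of genes called. These counts were near the share among all genes. Of 24 partners and processing enzymes, Brk1, a subunit of the WAVE actin regulator, was higher at 0.18 ± 0.051, Ptk2b, a kinase bound by protocadherin cytoplasmic domains, was higher at 0.13 ± 0.038, and the receptor kinase Ret was lower at -0.41 ± 0.11 (log2 ± SE, adjusted p between 0.0237 and 0.0372 in limma), 3 of 24 against the same background of 9.28%. Averaged over treatments, Brk1 was the only one of the 24 called higher, and 6 were lower: Ret, the protease Adam10, the kinase Prkca and the WAVE complex subunits Cyfip2, Abi1 and Nckap1, 7 of 24 called against a background of 14%. No gene of these lists was called in the other comparisons of pairs of groups.

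The non-clustered protocadherins, related adhesion genes outside the clusters, were also lower where called. In HT shock against WT shock 2 of 11 tested were called, Pcdh17 at -0.31 ± 0.072 and Pcdh10 at -0.18 ± 0.050 (log2 ± SE, adjusted p = 0.0146 and 0.0303 in limma), against a background of 5.33% of genes called lower, and 6 of 11 were lower when treatments were averaged, against a background of 8.62%. Of 34 other tested genes within 500 kb of the clusters, 11 had negative differences between HT shock and WT shock, with a median of 0.030, and 1 was called, higher. The background was 49.2% of genes with negative differences and 9.28% called, so the share called was not above that of genes in general.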

How the data were processed

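RNA of 23 brain libraries was measured by stranded poly(A) sequencing, per the labels' protocols. The signal the authors deposited is a normalized count with decimals for each gene in each library; raw counts were not used here. Per the submitters' processing notes, the tools were DESeq2 1.26.0, Salmon 1.1.0 and R 3.6.2 and the build GRCm38, without roles. Of 24 library columns, 1 matched no labelled sample and was not used. An Ensembl ID gave a symbol in 18563 of 18578 rows, and gene structure came from GENCODE on GRCm38.

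The members and gene lists were chosen with earlier results of these data known. All 17118 genes whose mean reached 10 were fitted as log2(value + 1) with limma 3.58.1 (R 4.3.3, trend and robust), all 4 groups in one model, with Benjamini-Hochberg adjustment over all genes and calls at 0.05. Differences are on this scale and are too small for genes of low level. The design had named a count test for raw counts; since depth is unknown, limma was used and no counting error was computed. On simulated data for HT shock against WT shock, the procedure recovered 41.3% of log2 differences of 0.25, 70% of 0.5 and 87.3% of 1. It made 18 false calls among 50754 unchanged genes. Small differences can thus go uncalled. The simulated noise was independent between genes, so shifts shared by many genes, as in HT control replicate 6, were absent. Both rates may therefore differ in the real libraries. Cluster sums and levels per kilobase were computed with pandas 2.3.3 and plotted with matplotlib 3.10.9. Members named were those called, the smallest p in each direction where a cluster had no call, and the 5 C-type genes, and a few others named for their separation or for estimates near 0 were chosen after their values were seen. The labels do not say that equal replicate numbers pair libraries. By title number, 5 of 33 same-numbered pairs correlated above 0.1 (median 0.0157), against 9 of 165 other pairs (median 0.0037). This difference was not tested and does not settle whether libraries were paired. Alternatives covered the filter, pseudocount, centring, blocks, weights, length and GC content, and each library left out. The length and GC correction and precision weights by vooma were added after seeing the data. The cell type lists also include immature neurons, interneurons, cerebellar, serotonergic and thalamic neurons, astrocytes, oligodendrocyte precursors, microglia, endothelium and choroid plexus.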

Additional observations from a re-analysis of the deposited data

Results flagged for a closer look

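Of 124 groups of 5 or 6 libraries checked, 10 held a library far from the others of its group by Dixon's criterion, which chance alone gives in about 1 of 20 groups. HT control replicate 6 accounted for 4 of them, with 1854 normalized counts of Pcdhac2 (nearest other library 2343), 51.3 of Pcdhb21 (nearest 109), 372 of Pcdhga2 (nearest 476) and a summed alpha value of 4847 (nearest 5651). WT shock replicate 5 had the lowest summed alpha value of its group, 5206 (nearest 5703), and the lowest summed gamma value, 22111 (nearest 23238). WT control replicate 1 was low for Pcdhb16, at 204 (nearest 284), and for the summed alpha value, at 5321 (nearest 5767). Pcdhb7 was low in HT control replicate 5, at 178 (nearest 215), and Pcdha6 was low in HT shock replicate 4, at 163 (nearest 243).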

How the results depend on the processing

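Directions of the called members in HT shock against WT shock and in the genotype average held under every alternative run. The count of members called in HT shock against WT shock, 3, was 7 with only the groups compared fitted, 12 with library weights and 9 at adjusted p below 0.1. These are 12.3%, 21.1% and 15.8% of members, while 17.1%, 22.1% and 18.1% of all genes were called under the same settings. The count ranged from 1 to 9 with single libraries left out: 1 without HT shock replicate 2 (2.9% of all genes) and 9 without HT control replicate 6 (17.1%). In HT shock against HT control the count of 0 became 9 with library weights, 15.8% of members against 16.3% of all genes, and ranged from 0 to 7 with single libraries left out. The genotype average gave 3 of its 8 calls after the length and GC correction (6.52% of all genes) and 3 to 9 with single libraries left out. Shock averaged over genotypes gave 1 call with library weights (3.35% of all genes) and 0 to 3 with single libraries left out. With the title's replicate number as a block, HT shock against WT shock called 0 members and the genotype average 7, while 2.63% and 8.79% of all genes were called. With the numbers in the library names, that block gave 4 and 7, with 5.7% and 12.3% of all genes. The labels support neither pairing, the correlations do not settle it, and no sample pairs were crossed. The log2 difference of the alpha sum in HT shock against WT shock, -0.043, was 0.044 after the length and GC correction. The gamma difference depended on whether the C-type members entered as summed values. Of these members, only Pcdhgc4 was higher in HT shock than in WT shock, while Pcdhgc3 and Pcdhgc5 had negative differences. Taken as a mean of log2 values and without the C-type members, respectively, the gamma difference was -0.064 and -0.072 in HT shock against HT control, -0.050 and -0.071 in HT control against WT control, -0.11 and -0.12 in HT shock against WT shock, -0.056 and -0.054 in the interaction, -0.078 and -0.10 in the genotype average, and -0.036 and -0.045 in the shock average. Pcdhb8 in HT shock against HT control was 0.27 and ranged from -0.014 (without HT control replicate 6) to 0.39 with single libraries left out, and Pcdhac2 in HT shock against WT shock went from -0.064 to 0.021 after the length and GC correction. The causes were not tested. A fit of only the groups compared does not exist for the interaction and the averages, which need all groups. The unknown depth and the division of reads among members with shared exons limit all single-member values.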
